A study of Mus musculus with 20 samples.

Results

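The genes described here encode the nuclear subunits and assembly factors of complex II, complex III and the mitochondrial ATP synthase, together with cytochrome c. They were found by symbol among the rows of the deposited table that hold a protein-coding transcript, with a mean FPKM (fragments scaled to gene length and library total) of at least 1 over all libraries. Of 31618 rows, 48 matched the symbols, 7 of these were pseudogenes with no protein-coding transcript, none of the rest lay under the floor, and 41 genes remained. They comprise 8 genes of complex II (4 subunits and 4 assembly factors), 13 of complex III (9 and 4), the somatic cytochrome c gene Cycs, and 19 of ATP synthase (17 and 2).

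Complex II (succinate dehydrogenase) oxidises succinate in the tricarboxylic acid cycle and hands its electrons to coenzyme Q, and it is the respiratory enzyme whose subunits are all encoded in the nucleus. Complex III takes electrons from reduced coenzyme Q, pumps protons and passes the electrons to cytochrome c, while ATP synthase lets protons flow back through its membrane ring and couples that flow to ATP formation on its F1 head. Oxidative muscle fibres hold more of all these enzymes than fast glycolytic fibres, and complex III and ATP synthase each need partners that the mitochondrial genome encodes.

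RNA was taken from the gastrocnemius, a mostly fast calf muscle, of male C57BL/6N mice and sequenced after poly(A) selection. The 20 libraries form 4 groups of 5: untreated controls, tetrathiomolybdate for 28 days (TM, a copper chelator), N-acetylcysteine for 28 days (NAC, a cysteine precursor and thiol antioxidant), and both compounds for 28 days (TM+NAC). Libraries are numbered within a group, and whether each number stands for its own mouse is not stated. The p-values below thus speak of the variation among the libraries at hand, part of which could be technical. No dose, route or age is used here.

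Libraries held between 54692639 and 90694139 counts, and the 41 genes took 0.981 to 1.55% of them. Markers of fast muscle were abundant in all libraries, among them Ckm at a mean FPKM of 5279, and the 5 heart markers listed were at mean FPKM of 0.03 (Nppa and Myl7) to 0.85 (Myh6). The library NAC 4 stood apart: it was the deepest, and 20.3% of its counts came from the mitochondrial genome against 13.5 to 15.4% in the other 4 NAC libraries. Values without it stand beside the results that it moves. Summed neuron markers were at 6.92 to 11.4 CPM (counts scaled to the library total) in controls. They were at 49.0 to 57.2 in 4 TM libraries but 10.4 in TM 1, at 72.3 to 85.7 in 4 NAC libraries but 9.91 in NAC 4, and at 65.0 to 90.1 with both compounds. TM 1 and NAC 4 were thus at the control level, and the part of these markers in the results was not tested. In bulk RNA, fewer cells of a type and less RNA per cell cannot be told apart.

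Sequence before the start sites was examined first. RefSeq (GRCm38.p6) gave a window of 250 bases before an annotated start for 34 of the 41 genes. The windows were searched on both strands for 3 sets of letters that are textbook binding sequences of regulators of respiratory genes: GCGC followed by NN and again GCGC for NRF1, CCGGAAG for ETS factors such as GABPA, and TNAAGGTCA for ESRRA. The NRF1 letters were in windows of 8 genes (23.5%), against 4.98% of all 32851 RefSeq windows and 13.2% of the tested genes with a window. The ETS letters were in 10 genes (29.4%), against 6.91% of all windows and 16.9% of tested genes, and the ESRRA letters in 1 gene (2.94%), against 1.14% and 0.771%. In all, 17 of 34 genes held at least 1 of the 3. A match describes letters in the window and not occupancy.

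The windows below are those that hold a match and have at most 10 bases in an annotated exon, so that they are nearly free of transcribed sequence. They belong to subunits whose values recur in the results: Atp5l, with the smallest p in several comparisons, Atp5e and Uqcr11, among the most variable between libraries, and Atp5g3, the gene with the ESRRA letters. Each runs 5′ to 3′ on the strand of the gene with the match in capitals. Positions are chr9:44920743-44920992 (minus strand) for Atp5l, chr2:174464102-174464351 (minus) for Atp5e, chr10:80406822-80407071 (minus) for Uqcr11 and chr2:73911327-73911576 (minus) for Atp5g3.
Atp5l: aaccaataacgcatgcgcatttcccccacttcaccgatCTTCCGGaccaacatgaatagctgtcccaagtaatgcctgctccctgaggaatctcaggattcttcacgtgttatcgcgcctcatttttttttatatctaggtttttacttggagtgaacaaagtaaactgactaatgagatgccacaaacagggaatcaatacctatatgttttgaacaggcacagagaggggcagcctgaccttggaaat
Atp5e: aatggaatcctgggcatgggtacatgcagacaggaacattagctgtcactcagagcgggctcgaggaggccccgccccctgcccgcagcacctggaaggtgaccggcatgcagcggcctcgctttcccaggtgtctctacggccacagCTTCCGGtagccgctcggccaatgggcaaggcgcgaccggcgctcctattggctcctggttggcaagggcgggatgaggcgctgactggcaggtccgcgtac
Uqcr11: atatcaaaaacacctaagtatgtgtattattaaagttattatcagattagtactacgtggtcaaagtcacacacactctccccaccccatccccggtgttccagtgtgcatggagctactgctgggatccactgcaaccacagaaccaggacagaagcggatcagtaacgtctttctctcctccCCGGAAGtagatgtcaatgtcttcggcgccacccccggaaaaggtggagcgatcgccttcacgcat
Atp5g3: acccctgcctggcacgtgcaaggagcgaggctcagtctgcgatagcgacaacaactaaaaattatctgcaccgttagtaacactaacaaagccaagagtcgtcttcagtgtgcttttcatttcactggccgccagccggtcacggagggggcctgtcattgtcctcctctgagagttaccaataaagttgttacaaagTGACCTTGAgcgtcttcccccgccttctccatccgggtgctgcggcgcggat
In Atp5l and Atp5e the ETS letters are on the reverse strand (CTTCCGG), in Uqcr11 on the strand of the gene, and in Atp5g3 the ESRRA letters are on the reverse strand.

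The levels of the 41 genes spanned from a mean FPKM of 2.16 for Sdhaf3, a factor for iron-sulfur maturation of Sdhb, to 514 ± 37.4 (SD, n = 20) for Atp5a1, the alpha subunit of the F1 head. Their median of 96.7 compares with 4.04 over the 9696 tested genes. Subunits lay between 32.2 and 514 and assembly factors between 2.16 and 74.0, where the highest was Uqcc2, a factor for cytochrome b. Atp5b, the catalytic beta subunit, was at 495 ± 37.9 and Atp5c1, the gamma subunit of the central stalk, at 275. In complex II the flavoprotein Sdha was highest (157 ± 12.1) and the anchor Sdhc the lowest subunit (58.9 ± 6.99), and in complex III the small subunit Uqcr10 was highest (243 ± 54.4) and Uqcrq the lowest subunit (74.4).

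These FPKM levels depend on the length behind them. Counts divided by FPKM, scaled on 1179 tested genes with 1 listed transcript, gave for 39 of the 41 genes a length within 1% of the merged length of all their exons in GENCODE M21. For 20 genes that length was over 1.5 times the longest coding transcript, so their FPKM understates the level per length of the messenger RNA. Atp5l, subunit g of the membrane part, was the extreme, with a merged length of 6443 bases against 544 for its longest coding transcript. Its mean level was 32.2 as deposited and 381 on the coding transcript, which moved it from rank 32 to rank 6 of the 41. Atp5b moved to the first rank at 1093 and Atp5a1 to the next at 602. On that scale Sdhb (236) lay above Sdha (223), and Uqcrb (345) above Uqcr10 (327). Across the 41 genes the scales had a Spearman correlation of 0.81. A fold between groups is not touched by this choice, since each gene keeps its length in all libraries.

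**Figure D1:**
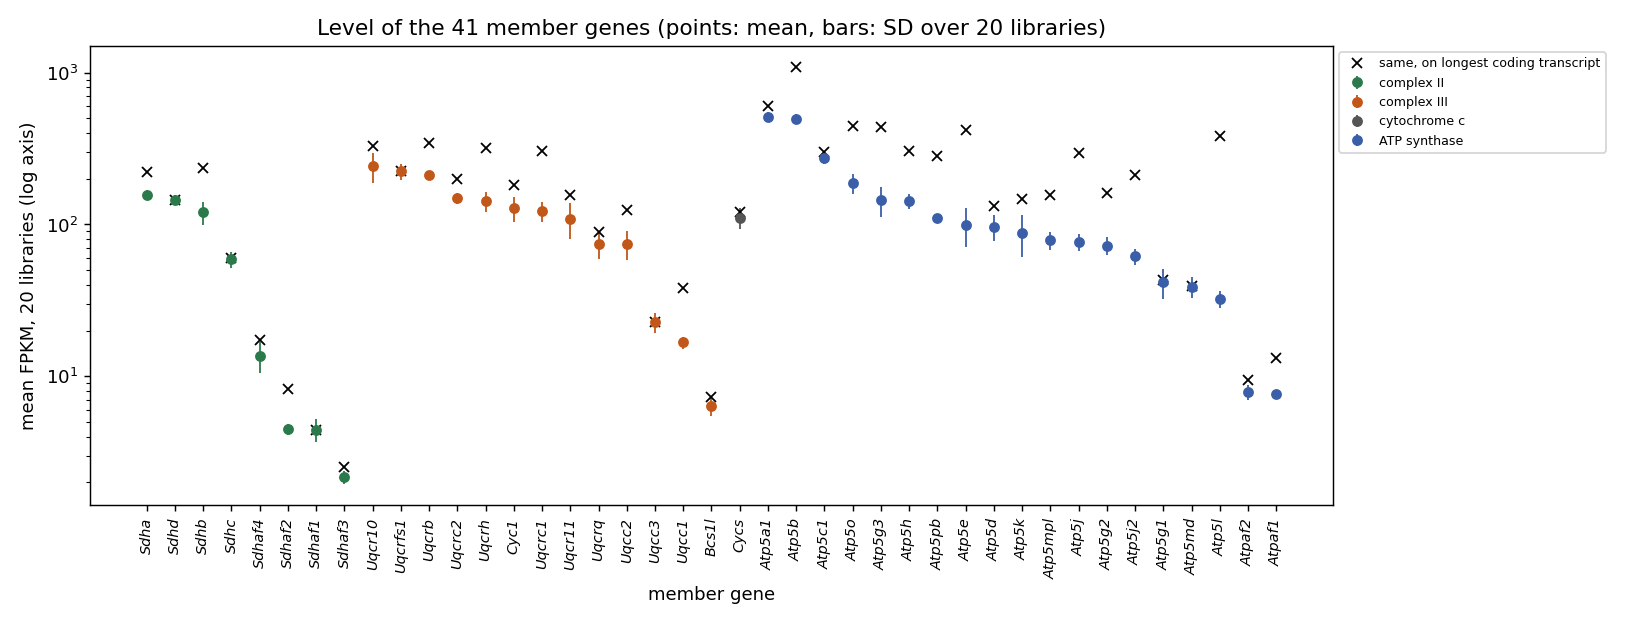
Mean FPKM of the 41 genes on a log axis, by complex, with subunits before assembly factors; coloured points are deposited values with bars for the SD over 20 libraries, and crosses the same on the longest coding transcript. Atp5a1 and Atp5b lie near 500 and the assembly factors at the bottom, while the cross of Atp5l (381) lies far above its point (32.2).

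The c ring shows the same limit. Its subunit c is made from Atp5g1, Atp5g2 and Atp5g3, which encode the same mature protein behind different targeting sequences. Of the summed FPKM of these genes, Atp5g3 made up 55.4 ± 3.03% (SD, n = 20) and Atp5g2 28.6 ± 3.33%, with Atp5g1 the rest. Of their summed counts the shares were 48.9%, 19.4% and 31.7%, and on the longest coding transcript 67.5%, 25.7% and 6.73%. Atp5g3 was thus the largest on all 3 scales, while the order of the other pair turned with the scale. By group the FPKM share of Atp5g3 was 56.2 ± 3.33% in controls, 55.6 ± 1.84% with TM, 53.8 ± 4.64% with NAC and 56.0 ± 1.77% with both, and these means differed by less than the largest SD.

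In none of 8 tests did any of the 41 genes pass an adjusted p under 0.05 (edgeR's quasi-likelihood test with Benjamini-Hochberg adjustment over all tested genes). The tests were the 6 pairs of groups, the interaction (the difference of TM+NAC from NAC less that of TM from control), and any difference among the 4 groups. Over all tested genes the share called was 0% for TM against control and for NAC against TM, 0.217% for NAC against control (0.206% higher, 0.0103% lower), 0.351% for TM+NAC against control (0.309% higher, 0.0413% lower), 0.0309% for TM+NAC against TM and against NAC, 0.0103% for the interaction and 0.196% for any difference. DESeq2 and limma also called 0 of the 41. The test of NAC against control was also run on simulated data with 50 genes changed at each size among 9696. It called 4% of 1.2-fold, 52% of 1.5-fold and 82% of 2-fold changes. The changed genes were drawn at random from all tested genes, and shifts shared by many genes of a library were not simulated. These rates thus need not hold for the 41 genes, whose log2 folds had a median standard error (SE) of 0.11. The sections below describe values, and no difference in them passed.

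At an unadjusted p under 0.05, the 41 genes gave 1 lower in TM against control (1.8% of tested genes were lower at that p) and 10 lower in NAC against control (3.52%). They gave 2 lower in TM+NAC against control (3.41%), 2 lower in TM+NAC against TM (3.01%) and 9 lower in NAC against TM (2.49%). In these comparisons 0 of the 41 were higher at that p, where in the same order 1.57, 3.92, 2.97, 2.18 and 2.69% of tested genes were. In TM+NAC against NAC 10 were higher (4.98%) and 0 lower (6.92%), in the interaction 5 were higher (3.51%) and 0 lower (3.77%), and 2 had such a p for any difference among the groups (6.42%). These counts moved with single libraries. The 10 of NAC against control were 1 without Control 2, 3 without Control 1, 4 without NAC 4, 5 without NAC 1 and 6 without Control 5 or NAC 3, and 20 without Control 4 and 23 without NAC 2. They were 2 in a fit of those groups alone and 13 with the trend in GC and length described below removed. The 10 of TM+NAC against NAC were 5 without TM+NAC 2, 6 without NAC 1 or NAC 4 and 24 without NAC 2, and 21 with limma on log2(FPKM + 1). The 9 of NAC against TM were 1 without TM 5, 3 without NAC 1, 5 without TM 4 or NAC 3 and 1 in a fit of those groups alone. The same count was 12 without TM 1, 13 without NAC 2 and 14 with the GC and length trend removed. With single libraries left out, the 5 of the interaction lay between 2 without TM+NAC 3 and 14 without Control 4 or NAC 2. They were 15 with limma and library weights. The comparisons share libraries and are not independent of each other. NAC had the lowest mean of the 4 groups for 36 of the 41 genes and TM+NAC for 5. Without NAC 4 these were 29 for NAC, 9 for TM, 2 for TM+NAC and 1 for control. In both cases the highest mean was in control for 17, TM+NAC for 13 and TM for 11. The order of group means was not counted over all tested genes.

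**Figure D2:**
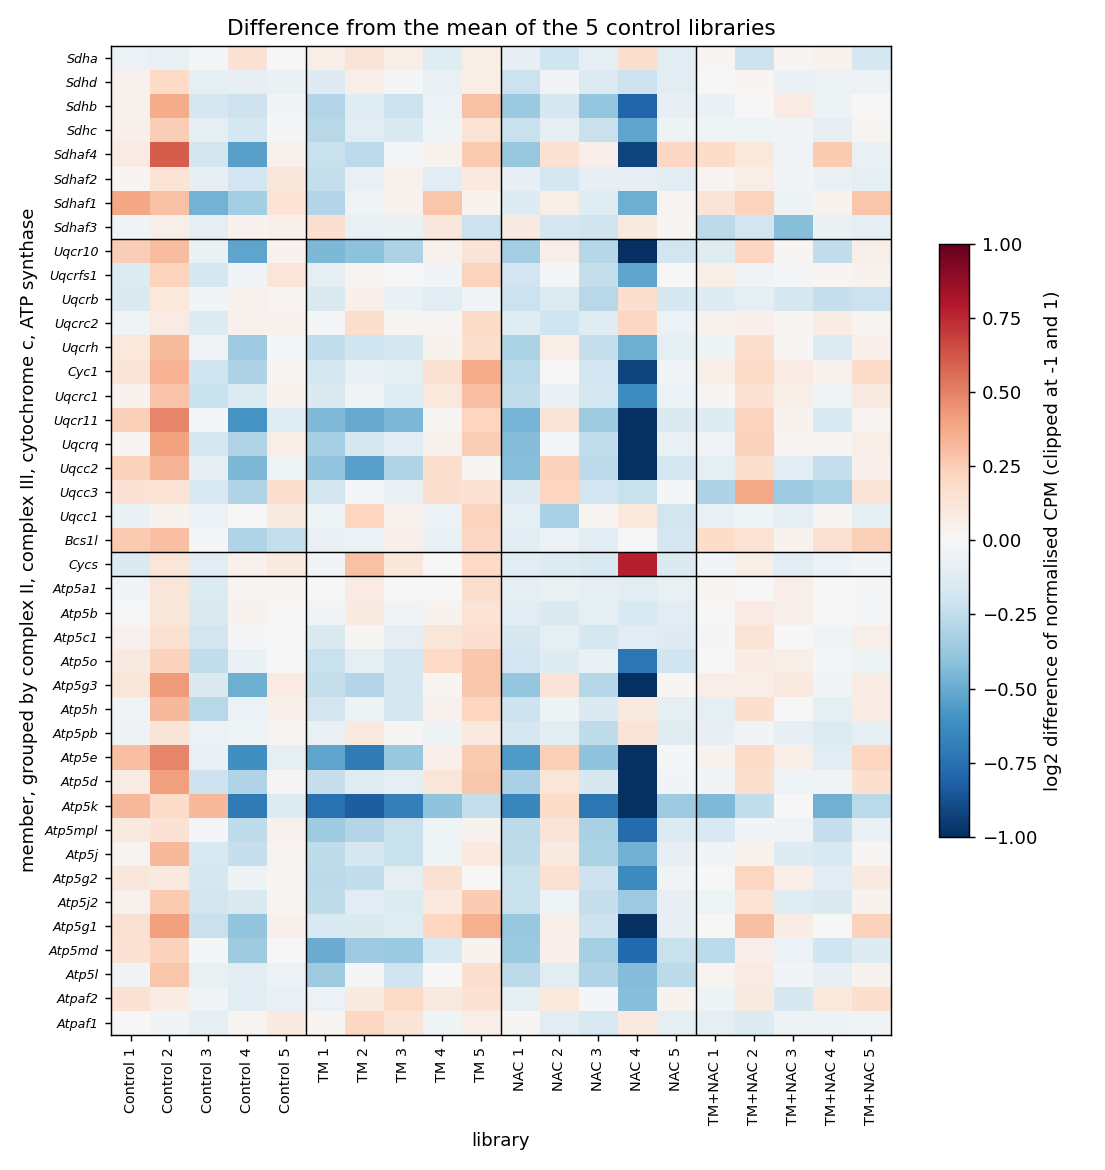
Log2 difference of each gene (rows, by complex) in each library (columns, by group) from the mean of the 5 control libraries, in normalised CPM, with colours clipped at -1 and 1. NAC 4 is the darkest column, with a median of -0.48 over the 41 genes and a high value for Cycs, and Control 2 is the reddest, with a median of 0.23.

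The libraries differed within groups. The median log2 difference of the 41 genes from the control mean was 0.05, 0.23, -0.11, -0.18 and 0.03 in Control 1 to 5, and -0.22, -0.08, -0.10, 0.02 and 0.17 in TM 1 to 5. It was -0.22, -0.03, -0.20, -0.48 and -0.09 in NAC 1 to 5, and -0.03, 0.08, -0.01, -0.06 and 0.03 in TM+NAC 1 to 5. All 5 NAC libraries lay below 0, the controls and TM straddled it, and TM+NAC had the narrowest range. For single genes the SD within groups on the log2 scale was lowest for Atp5a1 (0.064) and Atp5b (0.065) and highest for Atp5k (0.503), Atp5e (0.489) and Uqcr11 (0.442), with a median of 0.180 over the 41 and 0.192 over all tested genes.

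The order of genes in NAC 4 went with transcript composition. Across the 41 genes the log2 difference of NAC 4 from the mean of all libraries had a Spearman correlation of -0.55 with the GC content of the longest coding transcript and of 0.49 with its length, and across 9688 tested genes of -0.69 and 0.40. Short transcripts such as Atp5k (371 bases, -1.72), Atp5e (421 bases, -1.59) and Uqcr11 (445 bases, 58.9% GC, -1.51) were far below the mean, and Cycs (3123 bases, 40.8% GC) lay 0.75 above it. By length there were exceptions. The long Atp5g1 (4715 bases, 46.8% GC) was at -1.18 and Atp5md (2733 bases, 42.2% GC) at -0.60. The short Uqcrb (535 bases) was at 0.26 and Atp5h (682 bases) at 0.12. The same correlations across the 41 genes were between -0.43 and 0.57 for GC and between -0.66 and 0.61 for length in the other 19 libraries, so the relation took both directions. Removing each library's trend with GC and length over all tested genes, a step chosen after the data were seen, brought the median of NAC 4 from -0.48 to -0.10, beside -0.11, -0.08, -0.13 and -0.08 in NAC 1, 2, 3 and 5. These points share a library and a gene set and are a description.

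**Figure D3:**
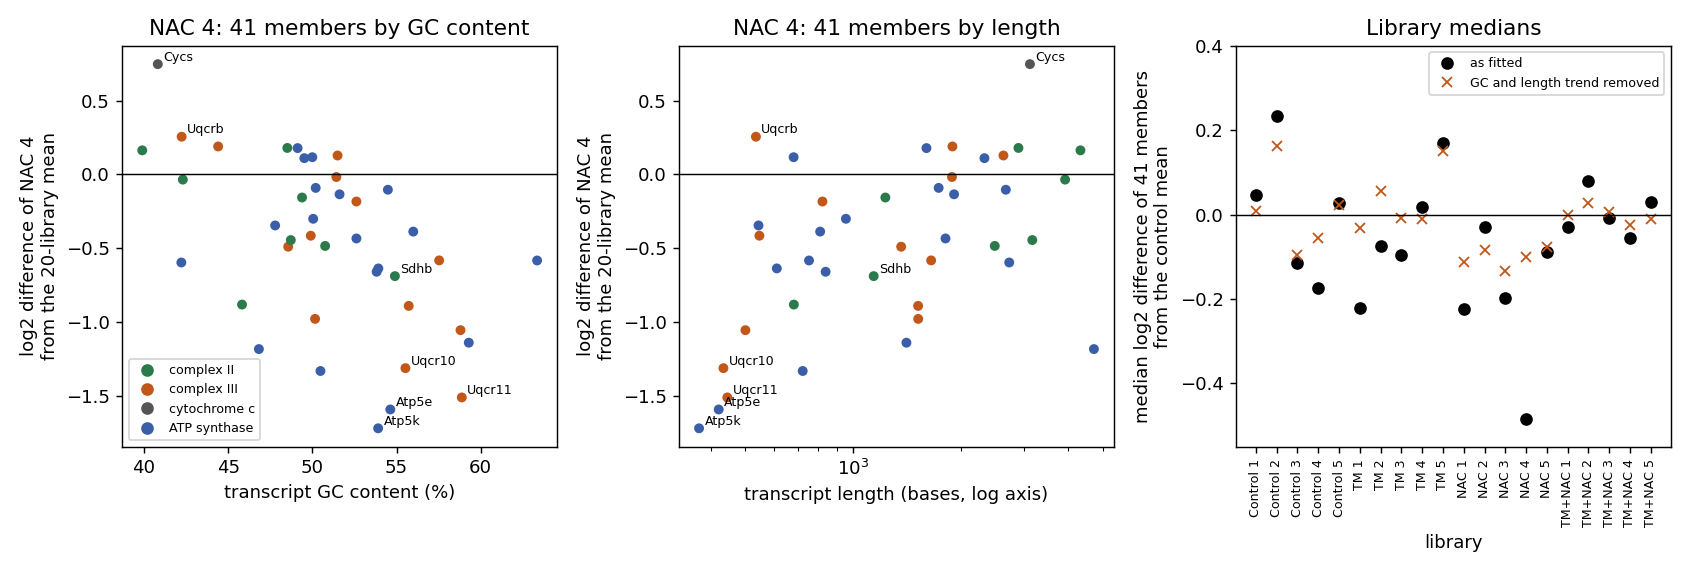
Left and middle, the log2 difference of NAC 4 from the 20-library mean for each gene against GC content and length (log axis) of its longest coding transcript, coloured by complex; right, the median log2 difference of the 41 genes from the control mean per library as fitted (points) and with the GC and length trend removed (crosses). NAC 4 moves from -0.48 to -0.10, and all 5 NAC libraries lie below 0 on both scales.

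With NAC alone, 40 of 41 genes had a negative log2 fold against control, Cycs being the exception, and the median was -0.19 against 0.00 over all tested genes, of which 4845 were negative and 4851 positive. By complex the median was -0.15 for complex II, -0.22 for complex III and -0.21 for ATP synthase, and it was -0.22 for subunits and -0.10 for assembly factors. The median was -0.14 without NAC 4, with 40 negative, and -0.08 without NAC 4 and Control 2, with 38 negative. With the GC and length trend removed it was -0.11, with 38 negative. The median was thus smaller in each of these settings, and it was negative under all 35 alternatives tried, with a range of -0.25 to -0.08.

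The complex II subunits differed in this comparison. Sdhb (ENSMUSG00000009863, chr4:140961203-140979193, plus strand of GRCm38) carries the iron-sulfur clusters. It was at 348, 437, 299, 292 and 332 normalised CPM in Control 1 to 5 and at 261, 302, 258, 194 and 319 in NAC 1 to 5, and in TM+NAC at 322, 338, 358, 327 and 337. All 5 NAC libraries lay below the control mean but the groups overlapped, while all 5 TM+NAC libraries lay above all 5 NAC libraries. The log2 fold of Sdhb was -0.36 ± 0.13 (SE) in NAC against control (adjusted p 0.587) and 0.33 ± 0.13 in TM+NAC against NAC (adjusted p 0.409) by edgeR's quasi-likelihood test with Benjamini-Hochberg adjustment. Without NAC 4 these were -0.26 ± 0.12 and 0.24 ± 0.12. Sdhb was at 276, 311, 291, 324 and 413 in TM 1 to 5, a range that overlapped both controls and NAC, with a log2 fold of -0.08 ± 0.13 against control.

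Sdha, the flavoprotein that oxidises succinate, was at 743, 734, 764, 857 and 773 CPM in controls and at 730, 674, 721, 862 and 717 in NAC. NAC 4 was above all controls and the other 4 NAC libraries below all of them. The log2 fold of Sdha was -0.06 ± 0.08 with NAC 4 and -0.12 ± 0.07 without it, and in TM+NAC against NAC 0.00 ± 0.08 and 0.07 ± 0.07. The membrane anchors Sdhc and Sdhd had -0.22 ± 0.09 and -0.14 ± 0.06 in NAC against control, with all 5 NAC libraries below the control mean for each, and -0.15 ± 0.08 and -0.12 ± 0.06 without NAC 4. Among the assembly factors, Sdhaf1 (-0.16), which helps insert the iron-sulfur clusters of Sdhb, Sdhaf2 (-0.11), which attaches the flavin to Sdha, and Sdhaf4 (-0.17), which binds flavinylated Sdha, had negative folds. Without NAC 4 these were -0.07, -0.11 and -0.02. Sdhaf3 was at -0.03, and -0.06 without NAC 4.

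In complex III all 13 genes had a negative fold in NAC against control, from -0.44 for the small subunit Uqcr11 to -0.05 for the core protein Uqcrc2, which were -0.23 and -0.12 without NAC 4. Uqcrc1, the other core protein, was at 623, 740, 520, 553 and 621 CPM in controls, 510, 579, 536, 395 and 582 in NAC, and 612, 670, 632, 594 and 646 in TM+NAC. Its NAC values were mostly within the lower part of the control range, and all of them lay below all TM+NAC values. Cyc1, the haem protein cytochrome c1, was at 359, 418, 286, 265 and 333 in controls, 272, 328, 288, 173 and 320 in NAC, and 341, 374, 346, 336 and 372 in TM+NAC. Again the NAC and TM+NAC libraries did not overlap. The log2 folds in TM+NAC against NAC were 0.28 ± 0.11 for Uqcrc1 and 0.36 ± 0.15 for Cyc1, each with an adjusted p of 0.409 by edgeR's quasi-likelihood test. Without NAC 4 they were 0.19 ± 0.10 and 0.23 ± 0.12.

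The Rieske iron-sulfur protein Uqcrfs1 was at 333, 428, 325, 359 and 398 CPM in controls and at 321, 362, 311, 254 and 368 in NAC, with a log2 fold of -0.19 ± 0.09, and -0.11 ± 0.08 without NAC 4. Uqcr10 was at 216, 225, 173, 126 and 186 in controls and 144, 191, 149, 65.3 and 159 in NAC, a fold of -0.39 ± 0.20 with NAC 4, which was lowest by far, and of -0.20 ± 0.15 without it. Uqcrb, a supernumerary subunit next to cytochrome b, went another way in that library: it was at 199, 210, 190, 259 and 206 in NAC, with NAC 4 the highest, and its fold against control was -0.12 ± 0.07 with that library and -0.19 ± 0.06 without it. Uqcrb had its lowest group mean in TM+NAC, at 206 ± 8.33 against 231 ± 14.6 in controls (SD, n = 5), and its fold of -0.17 ± 0.07 in TM+NAC against control had the smallest p there together with Sdhaf3 (adjusted p 0.700 by edgeR's quasi-likelihood test for both).

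The assembly factors of complex III had folds of -0.32 (Uqcc2), -0.11 (Bcs1l), -0.09 (Uqcc1) and -0.07 (Uqcc3) in NAC against control. Without NAC 4 these were -0.16, -0.13, -0.13 and -0.03. Bcs1l, the chaperone that inserts the Rieske protein, was at 14.9, 15.4, 14.9, 16.1 and 14.3 CPM in NAC and at 18.2, 17.7, 16.5, 17.8 and 19.0 in TM+NAC, with no overlap and a fold of 0.24 ± 0.10. Its control values were wide, at 19.2, 19.8, 15.8, 13.04 and 13.6, and held both ranges.

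Cytochrome c carries electrons from complex III to complex IV. Cycs was at 389, 469, 397, 443 and 458 CPM in controls, 422, 528, 465, 429 and 493 in TM, and 421, 449, 399, 414 and 421 in TM+NAC. In NAC it was at 398, 391, 387, 738 and 388. NAC 4 was far above all other libraries and the other 4 NAC libraries lay close together at the low end. The log2 fold in NAC against control was 0.09 ± 0.14 with NAC 4 and -0.14 ± 0.07 without it, so the sign of this gene rested on that library. Against TM it was -0.02 ± 0.14 with NAC 4 and -0.26 ± 0.07 without it (adjusted p 0.933 by edgeR's quasi-likelihood test).

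**Figure D4:**
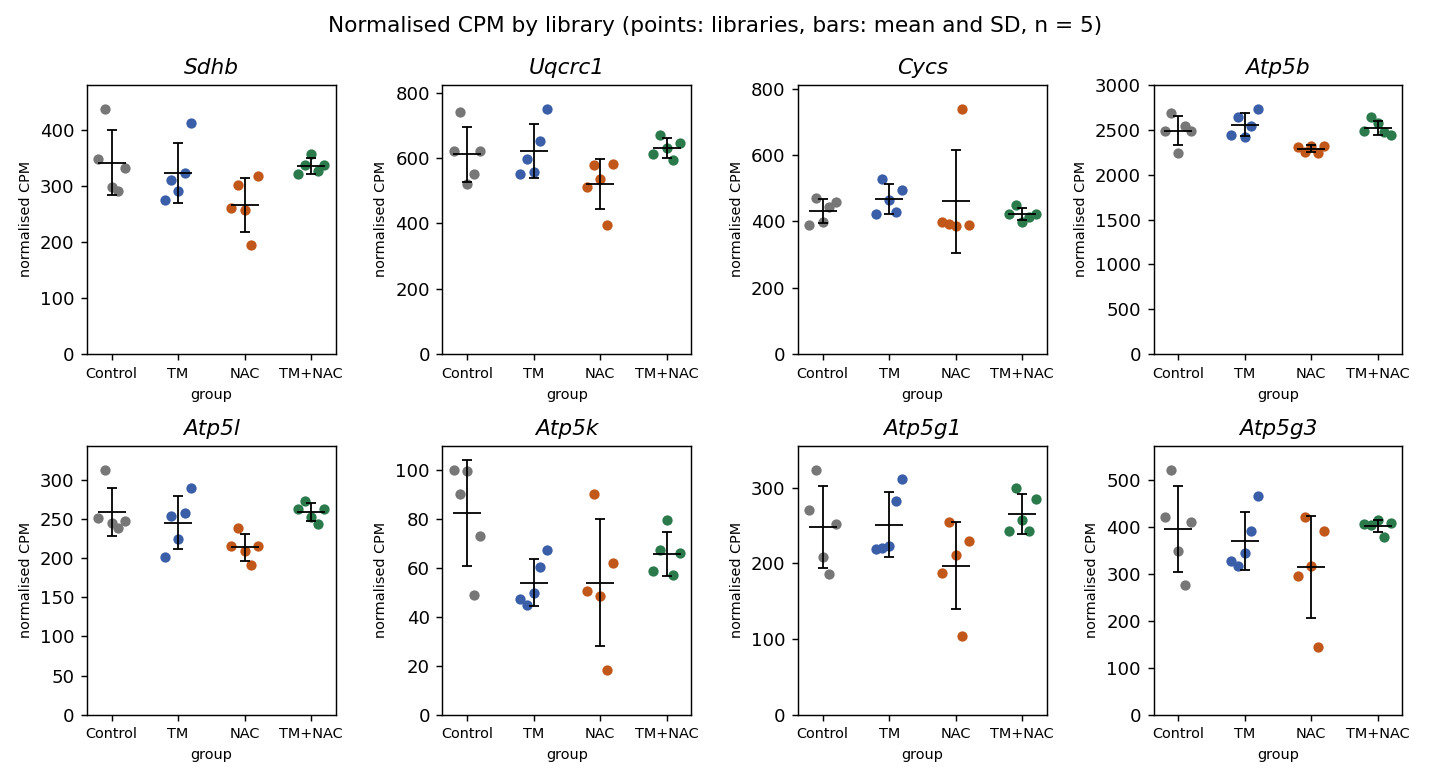
Normalised CPM of 8 genes in each library by group, on axes from 0, with the mean and SD over 5 libraries as bars. NAC libraries of Sdhb, Uqcrc1, Atp5b and Atp5l lie below all TM+NAC libraries, and NAC 4 is the isolated high point of Cycs (738) and the lowest point of Atp5k (18.4).

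The F1 head of ATP synthase gave the most even values. Atp5b (ENSMUSG00000025393, chr10:128083273-128090391, plus strand) was at 2492, 2690, 2246, 2546 and 2490 CPM in controls, 2443, 2645, 2427, 2549 and 2731 in TM, 2314, 2257, 2323, 2245 and 2317 in NAC, and 2494, 2641, 2576, 2476 and 2450 in TM+NAC. The NAC libraries lay within a narrow band that included NAC 4, below all TM and all TM+NAC libraries and below all controls but Control 3. Its log2 fold was -0.12 ± 0.06 in NAC against control, -0.16 ± 0.06 against TM and 0.14 ± 0.06 in TM+NAC against NAC, with adjusted p of 0.889 in the second by edgeR's quasi-likelihood test. Without NAC 4 the second was -0.15 ± 0.06, and with the GC and length trend removed -0.14 ± 0.05.

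Atp5a1 had the same order. It was at 1865, 2073, 1728, 1936 and 1934 CPM in controls, 1899, 2015, 1913, 1900 and 2150 in TM, 1787, 1809, 1793, 1765 and 1809 in NAC, and 1926, 1900, 1990, 1896 and 1875 in TM+NAC. NAC lay below all TM and all TM+NAC libraries. The fold against TM was -0.14 ± 0.06. Atp5a1 and Atp5b were the 2 genes of 41 whose NAC and TM libraries did not overlap on the low side (0.351% of tested genes), and both were among the 9 genes whose TM+NAC libraries lay above all NAC libraries (1.44% of tested genes). The others were Sdhb, Uqcrc1, Cyc1, Bcs1l, Atp5c1, Atp5o and Atp5l. Without NAC 4, a setting added after the data were seen, the first count was 5 with Cycs, Uqcrc2 and Atp5pb (0.67% of tested genes) and the second 11 with Cycs and Uqcrc2 (1.73%). None of the 41 was without overlap in the other direction of these comparisons, where 0.309% and 1.19% of tested genes were. The other 4 pairs of groups also had 0 of 41, except that Sdha and Atp5pb were lower in NAC than in control without NAC 4 (0.619%). Of tested genes, 0.268% lay higher and 0.175% lower without overlap in TM against control, and 0.309% and 0.289% in NAC against control. In TM+NAC these shares were 1.1% and 1.09% against control and 0.959% and 0.846% against TM.

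The c-ring genes were more variable. Atp5g1 was at 270, 323, 209, 185 and 252 CPM in controls and at 187, 254, 210, 103 and 230 in NAC, and Atp5g3 at 421, 522, 350, 277 and 411 against 296, 423, 317, 143 and 393. Atp5g2 was at 160, 159, 131, 143 and 149 in controls and 127, 164, 128, 95.0 and 144 in NAC. In all of them NAC 4 was the lowest of the 20 libraries, and the rest of the NAC group lay inside the control range or near its edges, with NAC 2 above all controls for Atp5g2. The folds in NAC against control were -0.33 ± 0.18, -0.33 ± 0.20 and -0.17 ± 0.11 for Atp5g1, Atp5g3 and Atp5g2. Without NAC 4 they were -0.17 ± 0.14, -0.14 ± 0.15 and -0.07 ± 0.09. In TM+NAC the 3 genes were at 265 ± 26.0, 403 ± 13.4 and 154 ± 12.9 (SD, n = 5), close to the control means of 248 ± 53.9, 396 ± 90.9 and 148 ± 11.9.

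Subunits e and g lie in the membrane part where ATP synthase forms dimers, and Atp5l had the smallest p of the 41 genes in NAC against control, in TM+NAC against NAC and in the interaction. Atp5l (ENSMUSG00000038717, chr9:44912557-44920742, minus strand), whose upstream window is printed above, was at 252, 312, 245, 238 and 247 CPM in controls, 202, 254, 224, 257 and 290 in TM, 215, 239, 209, 191 and 215 in NAC, and 263, 272, 253, 243 and 263 in TM+NAC. NAC lay below the control mean in 5 of 5 libraries and below all TM+NAC libraries. Control 2, at 312, lay apart from the other controls (238 to 252), and the control mean and the folds against control include it. The log2 fold of Atp5l was -0.28 ± 0.09 in NAC against control (adjusted p 0.529), 0.28 ± 0.09 in TM+NAC against NAC (0.409) and 0.35 ± 0.13 in the interaction (0.597), all by edgeR's quasi-likelihood test. Without NAC 4 these were -0.23 ± 0.09, 0.24 ± 0.09 and 0.31 ± 0.12, and with the GC and length trend removed -0.15 ± 0.06, 0.20 ± 0.06 and 0.17 ± 0.09.

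Atp5k, subunit e, was the gene with an unadjusted p under 0.05 in TM against control. It was at 100, 90.4, 99.8, 49.0 and 73.1 CPM in controls, 47.6, 45.1, 49.8, 60.4 and 67.5 in TM, 50.8, 90.5, 48.4, 18.4 and 62.1 in NAC, and 58.8, 67.4, 79.7, 57.1 and 66.3 in TM+NAC. All 5 TM libraries lay below the control mean, but Control 4 lay among them. The fold was -0.61 ± 0.27 in TM against control and -0.61 ± 0.27 in NAC against control (adjusted p 0.999 and 0.638 by edgeR's quasi-likelihood test), and -0.45 ± 0.18 and -0.46 ± 0.18 with the GC and length trend removed. Without NAC 4 they were -0.60 ± 0.19 and -0.39 ± 0.20, so the equal size in both groups rested on that library. Atp5k has the shortest transcript of the 41 genes, and the pseudogene Atp5k-ps2 held 1.43% of its count.

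Atp5md, the small membrane protein also called DAPIT, was at 156, 165, 139, 110 and 141 CPM in controls, 100, 109, 109, 127 and 145 in TM, and 109, 146, 112, 82.3 and 121 in NAC. Most treated libraries lay below most controls, with overlap. The folds were -0.27 ± 0.13 for TM and -0.32 ± 0.13 for NAC, and 0.46 ± 0.18 in the interaction (adjusted p 0.597 by edgeR's quasi-likelihood test). Without NAC 4 the last 2 were -0.22 ± 0.12 and 0.36 ± 0.16. Taf5 overlaps Atp5md on the opposite strand, and its count was 2.80% of that of Atp5md. Other overlaps of this kind were Gabpa for the F6 gene Atp5j (10.9%), Wdr77 for the stalk gene Atp5pb (5.41%) and Gid4 for the chaperone gene Atpaf2, where Gid4 held 567% of its count. Whether counting used strand is not given in the sources used here, so values of Atpaf2 are uncertain.

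In the stalks, the folds in NAC against control were -0.14 for Atp5c1, -0.28 for Atp5d and -0.41 for Atp5e (the central stalk), and -0.25 for Atp5o, -0.21 for Atp5j, -0.10 for Atp5pb and -0.09 for Atp5h (the peripheral stalk). Without NAC 4 these were -0.14, -0.11 and -0.20, and -0.15, -0.14, -0.16 and -0.13. Atp5e was at 65.2 CPM in NAC 4 against 149 to 261 in the other NAC libraries. The chaperones of the F1 head had -0.05 (Atpaf1, for the beta subunit) and -0.07 (Atpaf2, for the alpha subunit), or -0.08 and 0.01 without NAC 4. Atpaf1 was at 37.2, 42.4, 40.04, 35.6 and 38.1 in TM and at 34.6, 33.5, 35.5, 35.4 and 35.8 in TM+NAC, a fold of -0.15 ± 0.06 with nearly separate groups, which was the smallest p of the 41 genes in TM+NAC against TM (adjusted p 0.939 by edgeR's quasi-likelihood test).

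**Figure D5:**
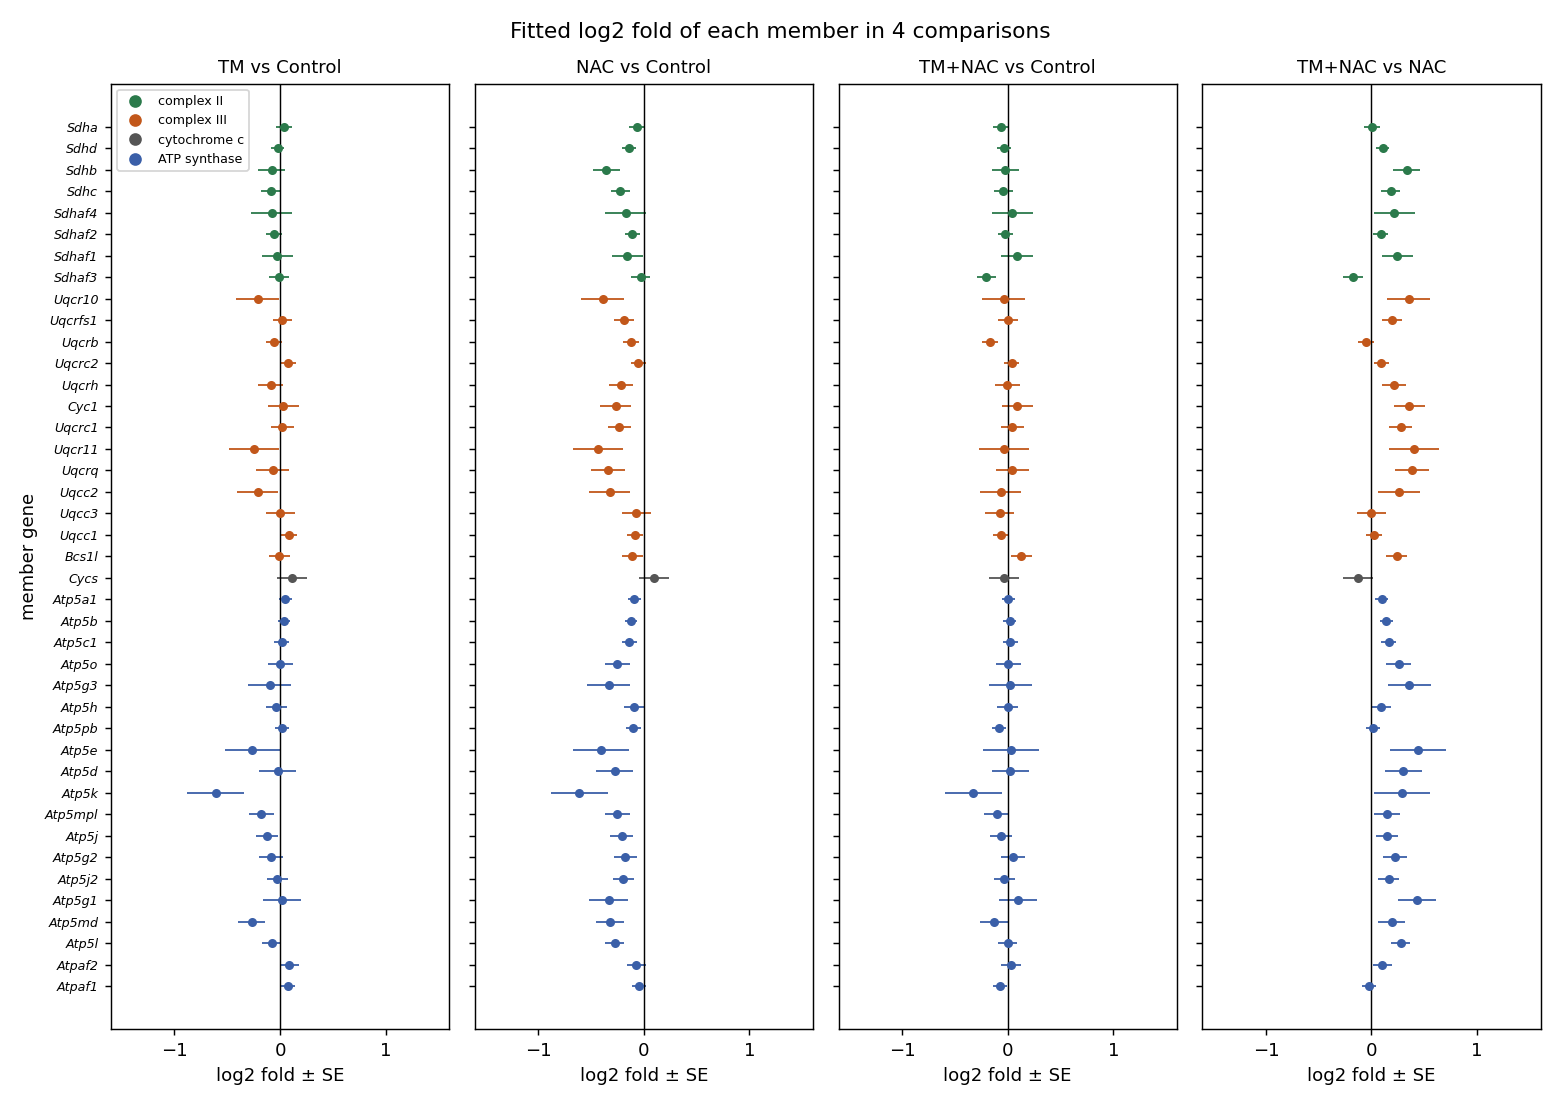
Log2 fold with its SE for each of the 41 genes in 4 comparisons, coloured by complex. In NAC against control 40 of 41 points lie left of 0, in TM+NAC against NAC 36 lie right of it, and the other 2 panels scatter about 0. The panels share the control or NAC libraries.

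With TM alone the genes lay on both sides of the controls, with 25 negative and 16 positive folds and a median of -0.02, from -0.61 for Atp5k to 0.12 for Cycs. The median was 0.03 with the GC and length trend removed and -0.02 without NAC 4. By complex it was -0.04 for complex II, -0.01 for complex III and -0.03 for ATP synthase. With both compounds against control the median was -0.00, with 23 negative and 18 positive folds from -0.32 for Atp5k to 0.13 for Bcs1l. On the log2(FPKM + 1) scale, where the median of all tested genes was itself 0.05 for TM and 0.09 for TM+NAC against control, 14 and 4 of the 41 were negative, with medians of 0.04 and 0.12. Leaving out Control 2 gave 13 negative for TM and 10 for TM+NAC, and leaving out Control 3 gave 32 and 34. The split around 0 in these comparisons thus depended on the scaling and on single control libraries. Against TM the median was 0.05, with 26 positive folds, and -0.03 with the GC and length trend removed. Sdhaf3 was at 11.2, 11.8, 10.1, 12.9 and 12.7 CPM in TM+NAC and at 13.1, 14.0, 12.7, 13.8 and 14.0 in controls, a fold of -0.20 ± 0.09, which is a small difference in a gene of low level.

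With TM+NAC against NAC, 36 of 41 folds were positive with a median of 0.19, against -0.00 over all tested genes. Without NAC 4 the median was 0.12 with 39 positive, and with the GC and length trend removed 0.11 with 33 positive. The exceptions in the fit of all libraries were Sdhaf3 (-0.17), Cycs (-0.13), Uqcrb (-0.05), Atpaf1 (-0.02) and Uqcc3 (-0.00). In NAC against TM all 41 folds were negative with a median of -0.13, against 0.005 over all tested genes. Without NAC 4, 33 were negative with a median of -0.10, and with the trend removed 39, again with a median of -0.13. For the interaction 34 folds were positive with a median of 0.26, against -0.004 over all tested genes. The median of the 41 genes was 0.17 without NAC 4, 0.10 without NAC 4 and Control 2, and 0.09 with the trend removed. These comparisons all use the NAC libraries, so none is evidence for another.

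The partners encoded by the mitochondrial genome turned with NAC 4. mt-Cytb, the cytochrome b of complex III, was at 14655, 18482, 16679, 19828 and 18870 CPM in controls and at 16737, 15575, 15375, 22519 and 16014 in NAC, a log2 fold of -0.04 ± 0.11. mt-Atp6, subunit a of ATP synthase, had -0.01 ± 0.13, and mt-Atp8 0.22 ± 0.23, where NAC 4 was at 6412 against 2221 to 2826 in the other NAC libraries. Without NAC 4 the folds were -0.15 ± 0.09, -0.14 ± 0.12 and -0.17 ± 0.15, on the same side as the median of the 41 genes. In TM+NAC against NAC they were on the other side from the median of the 41 genes. There they were -0.19 ± 0.11, -0.24 ± 0.13 and -0.48 ± 0.23, and -0.07 ± 0.09, -0.10 ± 0.12 and -0.07 ± 0.15 without NAC 4. In TM+NAC against TM the folds were -0.23 ± 0.11, -0.34 ± 0.13 and -0.33 ± 0.23, with adjusted p of 0.906 to 0.939 by edgeR's quasi-likelihood test.

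Lists of neighbouring genes were set beside the members, and none of their genes passed for NAC against control in edgeR's quasi-likelihood test with Benjamini-Hochberg adjustment. Of 18 tested factors that build or limit the complexes, 13 had a negative fold, with a median of -0.08. The smallest p was that of Oxa1l, the insertase of the inner membrane (-0.22 ± 0.08). Of the 10 genes for exchange of ADP, phosphate and phosphocreatine 9 were negative (median -0.10), among them the carrier Slc25a4 (-0.22 ± 0.11) and the mitochondrial creatine kinase Ckmt2 (-0.24 ± 0.12). Of 12 genes of coenzyme Q synthesis 10 were negative (median -0.14), including Coq8a (-0.24 ± 0.11) and Coq5 (-0.16 ± 0.07).

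Of 7 other enzymes that hand electrons to coenzyme Q 4 were negative (median -0.07), with Etfb, a subunit of the electron transfer flavoprotein, at -0.36 ± 0.13. Of 8 genes of cristae and MICOS 6 were negative (median -0.08), and of 10 regulators of respiratory genes 7 (median -0.03), with Esrra at -0.14 ± 0.12. Positive folds in these lists included those of Gabpa (0.18 ± 0.15), Gpd2 (0.16 ± 0.09) and Opa1 (0.15 ± 0.11). Counts of passing genes in the lists were 0 in the other comparisons as well. Without NAC 4 the negative folds in NAC against control were 16 of 18, 9 of 10, 10 of 12, 5 of 7, 7 of 8 and 8 of 10 in the order given, with medians of -0.07, -0.09, -0.10, -0.11, -0.11 and -0.06, and 0 passed. In that fit Slc25a4 was at -0.11 ± 0.09, Esrra at -0.04 ± 0.11, Gpd2 at 0.09 ± 0.09 and Opa1 at 0.03 ± 0.09. Markers of slow and oxidative fibres had a negative fold in 9 of 9 for NAC against control (median -0.31, and -0.22 without NAC 4), 7 of 9 for TM against control (-0.23) and 7 of 9 for TM+NAC against control (-0.33). In TM+NAC against NAC, where most of the 41 genes had a positive fold, 6 of 9 of these markers were negative (median -0.15). Without NAC 4 they were 7 of 9 (-0.28). Their summed level had a mean of 5223 CPM in controls (4356 to 6919) and 5309 with TM (2987 to 6704). The mean was 4287 with NAC (3317 to 5147) and 5087 with both (3782 to 6687). By the mean of this sum TM+NAC lay above NAC, unlike the count of folds, and the ranges overlapped. The part of these markers in the values of the 41 genes was not tested.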

How the data were processed

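The 20 libraries were grouped by the treatment their labels give. The deposited table holds raw read counts and FPKM per gene and library, per the file headers. Reads were handled with cutadapt 1.9, FastQC, HISAT2 2.2.1 and StringTie on GRCm38, per the submitters' processing notes; the sources used here do not give how the authors counted reads, whether strand was used, or the annotation release. The library kit marks strand, per the labels' protocols. The 9696 genes whose FPKM averaged 1 or more were tested on the deposited counts with edgeR 4.0.16 (R 4.3.3; TMM scaling, quasi-likelihood test, 1 model for 4 groups), with p-values adjusted by the Benjamini-Hochberg method over all of them and a threshold of 0.05. Normalised CPM are edgeR's counts scaled to the TMM-adjusted library total. The SE of a log2 fold was the fold divided by the root of its F. FPKM were used to describe levels and were not tested.

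The members and gene lists were chosen with earlier results of these data known. Values by library are given for genes picked by role, for the highest and lowest level in each complex and for the 2 smallest p-values of each comparison. Alternatives were DESeq2 1.42.0, limma 3.58.1, other scalings and filters, the replicate number as a block, and leaving out each library. On simulated counts for NAC against control, 98% of 4-fold changes were recovered and 5 unchanged genes were called. Motifs and lengths were taken with Python 3.11.15 and pandas 2.3.3.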

Additional observations from a re-analysis of the deposited data

Results flagged for a closer look

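In 4 of 84 groups of 5 libraries, the highest or lowest library lay farther from the rest than Dixon's limit of 0.71 of the range allows. Chance gives about 1 in 20 such groups.

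Cycs, the cytochrome c gene, was at 738 CPM (737.5348) in NAC 4 against 387 to 398 in the other NAC libraries. The share of counts from the mitochondrial genome was 20.3% (20.28) in the same library against 13.5 to 15.4% in the others. Atp5l, subunit g of ATP synthase, was at 312 CPM (312.3621) in Control 2 against 238 to 252 in the other controls. Atp5g3, a gene for subunit c, was at 380 CPM (379.7914) in TM+NAC 4 against 405 to 415 in the other TM+NAC libraries, which lay close together.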

How the results depend on the processing

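None of the 41 genes passed under any of 35 alternatives, where the smallest adjusted p was 0.174 (Atp5l in NAC against control with no filter on level, by edgeR's quasi-likelihood test). The median fold over the genes ranged from -0.25 to -0.08 for NAC against control, -0.18 to -0.10 for NAC against TM and 0.11 to 0.26 for TM+NAC against NAC. It took both signs for TM against control (-0.07 to 0.05), TM+NAC against control (-0.06 to 0.12) and TM+NAC against TM (-0.03 to 0.12). The interaction median ranged from 0.08 to 0.33. It was 0.1037 without both NAC 4 and Control 2, 0.0857 with the GC and length trend removed and 0.0842 with that and the replicate block, steps chosen after seeing the data, and the cause was not tested.

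With the replicate number as a block, the medians were -0.02 for TM, -0.19 for NAC and 0.00 for TM+NAC against control, 0.04 for TM+NAC against TM, 0.20 against NAC, -0.14 for NAC against TM and 0.2561 for the interaction, and the block changed no call among the 41 genes. Over all tested genes it moved the calls from 21 to 10 for NAC against control, 34 to 41 for TM+NAC against control, 19 to 12 for any difference and 1 to 0 for the interaction. Whether the labels' numbers pair the libraries is not stated, and correlations of expression cannot exclude it. Of 30 same-numbered pairs, the correlation of deviations was -0.269 to 0.381, 11 were over 0.1, and 7 matched their own number best. The highest was that of Control 4 and NAC 4.

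The number of all tested genes called moved more than the 41 did. For NAC against control it was 21, and 439 with no filter, 38 with DESeq2, 41 without NAC 4, 2 with limma on log2(FPKM + 1) and 0 with a floor of 5 FPKM or in a fit of those groups alone. For TM against control it was 0, and 197, 19 and 22 in the first 3 of these. For TM+NAC against control it was 34, and 566 with no filter, 77 with DESeq2 and 0 with a floor of 5 FPKM. With a pseudocount of 0.1 on FPKM the median of all genes was 0.11 in that comparison and that of the 41 genes 0.12, nearly the same shift.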
